A study of Rattus norvegicus with 5 samples.

Results

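The complement genes C3, C4bpa and C1qb were described in lung RNA of rats that received EHC-93, an urban particulate matter sample, by instillation into the trachea. They were picked for their behaviour on these same arrays, from a set of 4736 named genes, and all probe sets annotated to them were used, 5 of 8740. A group is 1 pool of lung RNA, measured on 1 array. After EHC-93 instillation, the early pool combined RNA from 2, 4 and 6 h, the intermediate pool from 15, 18 and 21 h, and the late pool from 24, 32 and 40 h. The sham rats received saline and their pool combined RNA from 2, 15 and 24 h, while the untreated pool came from 3 rats without instillation. The sources used here do not give strain, sex, age or the number of rats behind the instilled pools. With 1 array per group, single arrays are compared without a test or an error, and all phases share the sham and untreated pools. Levels are scaled intensities, the deposited linear intensities brought to a common median over the arrays, and 172.53, the 40th percentile of all of them, is the floor below which values are not ordered. The members' values chose them, so they are given here as a description with no test.

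Complement is a cascade of plasma proteins that tags particles and microbes for uptake. C1q, whose B chain is encoded by C1qb, is the recognition unit of the classical pathway. Of the proteases that it carries, C1r activates C1s, and C1s cleaves C4 and C2. All activation routes meet at the cleavage of C3, which yields the opsonin C3b and the inflammatory peptide C3a. C4b-binding protein, whose alpha chain is encoded by C4bpa, restrains the classical pathway by speeding the decay of its C3 convertase and by helping factor I to cleave C4b. Liver is the main source of plasma C3 and C4b-binding protein. In lung, C3 is also made by epithelial cells and macrophages, and C1q mainly by macrophages and dendritic cells.

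The DNA before the start of each gene is shown because C3 and C4bpa both had their highest level in the intermediate pool while C1qb did not. The sequences are from RefSeq (rat assembly GRCr8), which held all 3 members, and each is written 5′ to 3′ on the gene's own minus strand, with base -1 next to the table's start site. C3 lies at chr9:2201340-2201589, C4bpa at chr13:44663553-44663721 and C1qb at chr5:154407828-154408077. For C4bpa, the 81 bases next to the start site are left out because the annotated gene reaches that far upstream. Capitals mark matches to a C/EBP-type motif.
C3: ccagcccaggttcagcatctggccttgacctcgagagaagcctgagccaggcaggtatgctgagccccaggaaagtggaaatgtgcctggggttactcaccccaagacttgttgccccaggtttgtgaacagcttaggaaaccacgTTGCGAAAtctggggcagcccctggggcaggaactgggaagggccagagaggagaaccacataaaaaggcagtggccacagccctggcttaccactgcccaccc
C4bpa: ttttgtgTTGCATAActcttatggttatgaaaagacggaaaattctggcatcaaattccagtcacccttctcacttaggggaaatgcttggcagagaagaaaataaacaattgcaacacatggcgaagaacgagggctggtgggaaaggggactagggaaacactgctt
C1qb: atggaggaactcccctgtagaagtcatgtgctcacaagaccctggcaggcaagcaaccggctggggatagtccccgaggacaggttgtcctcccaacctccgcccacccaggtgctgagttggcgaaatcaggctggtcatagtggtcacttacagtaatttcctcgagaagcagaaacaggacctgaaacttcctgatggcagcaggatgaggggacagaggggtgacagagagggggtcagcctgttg
C/EBP proteins are transcription factors of the acute phase response. The motif TTGCNNAA, searched on both strands of the 250 bases before the start, matched TTGCGAAA at -104 to -97 in C3 and TTGCATAA at -243 to -236 in C4bpa. It had no match in C1qb, and 9.22% of 33469 promoters held it. Neither GGANTTTCC (NF-kB type, in 1.08% of promoters), TTCNNNGAA (STAT type, 7.67%), TGANTCA (AP-1 type, 6.34%) nor TATAAA (12.9%) matched in any of the 3 windows. The 5 motifs were searched without regard to overlap. A match is a description of letters and no evidence of binding, and a link between these matches and the levels was not tested.

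The ratio of 5′ to 3′ probe signal for control transcripts, a measure of how complete the RNA and its copy are, differed between the pools, lowest in the intermediate and highest in the early one. For beta-actin it was 43.1% in the early, 9.07% in the intermediate and 19.6% in the late pool, against 14.7% in the sham and 24.4% in the untreated pool. For GAPDH it was 67.2%, 23.6% and 38.1%, against 25.5% and 39.1%.

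C3, the point where the pathways meet, had its highest level in the intermediate pool. On the probe set that stands for the gene, the one of its pair that was brighter on average, the scaled intensity was 4908 in the early, 13125 in the intermediate and 8473 in the late pool, against 4893 in the sham and 4081 in the untreated pool. The early value was thus almost the sham value, and the early pool cleared sham only by that narrow margin. After quantile normalization the early log2 difference from the controls turned to -0.0155, against 0.14 with median scaling. The intermediate level was 2.68-fold the sham and 3.22-fold the untreated level, and the late level 1.73-fold and 2.08-fold. Between phases, the intermediate pool was 2.67-fold above the early and 1.55-fold above the late pool. In the exposed pools C3 averaged 8836 ± 4121 (SD over 3 phases), against 4487 ± 574 in the unexposed pools (SD over sham and untreated); these SDs span different conditions and are no replicate error. In such pools more cells of a type and more RNA per cell cannot be told apart.

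The second C3 probe set had the same highest pool but another early value. It read 5539 in the early, 6955 in the intermediate and 4881 in the late pool, against 3062 in the sham and 2514 in the untreated pool. Here the early pool was 1.81-fold above sham and 2.20-fold above untreated, where the brighter probe set was level with sham and 1.20-fold above untreated. The intermediate pool was 2.27-fold and 2.77-fold above the controls, past 2-fold against both as with the brighter probe set. The late pool was 1.59-fold and 1.94-fold above them. The difference of C3 from the controls in the early pool therefore depends on the probe set, while the intermediate call does not.

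C4bpa, the regulator of the classical pathway, spanned the widest range of the 3 genes. Its single probe set read 1675 in the early, 3111 in the intermediate and 1723 in the late pool, against 1104 in the sham and 564 in the untreated pool. All exposed pools lay above both controls, the early and late pools nearly level with each other. The intermediate pool was 2.82-fold above sham and 5.52-fold above untreated. The early pool was 1.52-fold and 2.97-fold above these controls, and the late pool 1.56-fold and 3.06-fold, so both passed 2-fold against untreated only. The sham pool itself was 1.96-fold above untreated, a gap larger than that of C3 (1.20-fold) or C1qb (1.19-fold). The intermediate level was 1.86-fold the early and 1.81-fold the late level. C4bpa averaged 2170 ± 815 in the exposed and 834 ± 382 in the unexposed pools (SD over 3 and 2 pools).

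C1qb, the B chain of the recognition unit, stayed within 2-fold of both controls in every exposed pool. Its brighter probe set read 2070 in the early, 2243 in the intermediate and 2899 in the late pool, against 1855 in the sham and 1560 in the untreated pool. The late pool was the highest, 1.56-fold above sham and 1.86-fold above untreated. The early pool was the lowest of the exposed pools, at 1.12-fold and 1.33-fold. The average was 2404 ± 437 in the exposed and 1708 ± 208 in the unexposed pools (SD over 3 and 2 pools). The second C1qb probe set did not give this order: it read 1028 in the early, 661 in the intermediate and 827 in the late pool, against 702 in the sham and 710 in the untreated pool. By that probe set the early pool was the highest, at 1.46-fold and 1.45-fold, and the intermediate pool lay below both controls, with log2 differences of -0.09 and -0.10.

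**Figure D1:**
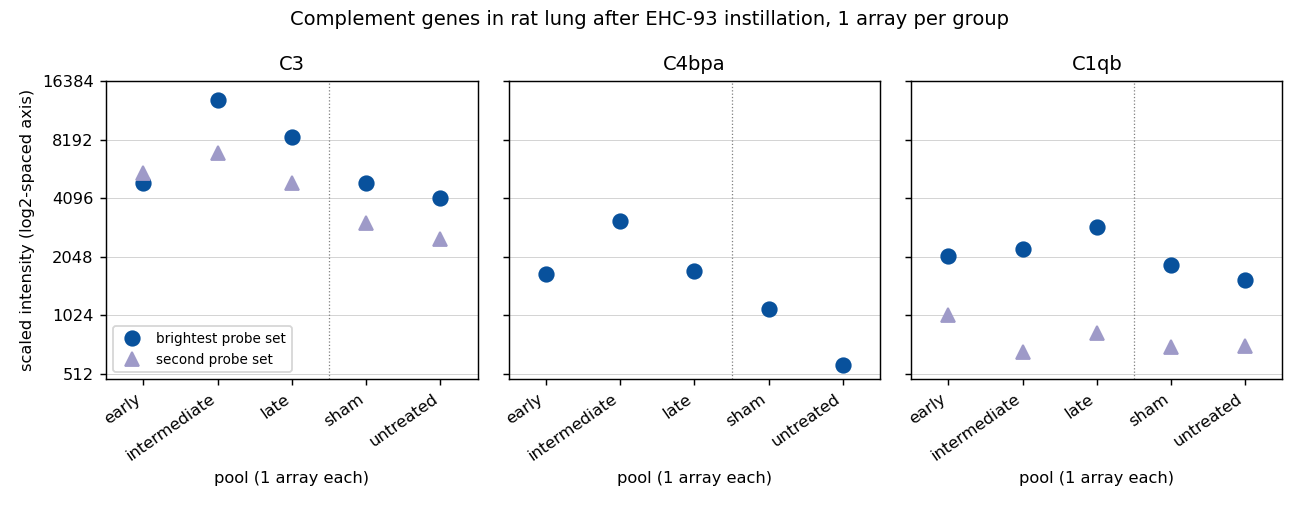
Scaled intensity (vertical axis, log2 spacing) of C3, C4bpa and C1qb in the early, intermediate, late, sham and untreated pools; each point is 1 array, circles are the probe set that stands for the gene and triangles the second probe set, and there are no error bars because each group has 1 array. C3 and C4bpa are highest in the intermediate pool, at 13125 and 3111, while the 2 C1qb probe sets differ in which array is highest.

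Set against all genes, a call of higher or lower means that an exposed pool was at least 2-fold away from both the sham and the untreated pool. By this rule 2 of the 3 members were higher in the intermediate pool, where 0.873% of 3667 genes above the floor passed. None of the 3 passed in the early pool (2.54% of all genes higher) or in the late pool (0.6% higher). The members' brighter probe sets were above both controls in all 3 exposed pools, as were 14.2% of all genes. By a smaller fold of 1.5, 1 of the 3 members was higher in the early pool (C4bpa; 6.84% of all genes), 2 in the intermediate pool (C3 and C4bpa; 4.75%) and 3 in the late pool (3.05%), and none was lower (2.97%, 1.58% and 3.46% of all genes). These counts use the probe set that stands for each gene. The second C3 probe set passed 1.5-fold in the early pool, at 1.81-fold and 2.20-fold over sham and untreated. The second C1qb probe set did not pass in the late pool, at 1.18-fold and 1.17-fold. The range over the 5 arrays was 2.46 for C4bpa, 1.69 for C3 and 0.89 for C1qb on the log2 scale, against a median of 0.61 over all genes. The rule that picked the members used these contrasts, so these counts are no support for them.

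The other complement genes were taken from a list of 58 symbols by role, of which 25 were measured and 21 lay above the floor on at least 1 array. Apart from the members 18 such genes remained. In the intermediate pool 1 of these 18 was higher and 0 were lower, against 0.873% and 0.218% of all genes. The higher count was 0 of 18 with values as deposited, 75th percentile scaling or quantile normalization, and 2 of 18 with the floor at the 20th percentile. Over all genes the higher counts were 21 of 3684, 25 of 3687, 23 of 3659 and 103 of 4475 in the same order. In the early pool 1 was higher and 1 lower (2.54% and 0.3% of all genes), and in the late pool 0 were higher and 1 lower (0.6% and 1.04%). The median log2 difference of the 18 from the mean of both controls was 0.07 in the early, 0.14 in the intermediate and 0.01 in the late pool, beside -0.01, 0.09 and 0.07 over all genes.

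Among recognition components and their proteases, C1s, the protease that cleaves C4 and C2, passed narrowly in the intermediate pool, and only with median scaling. It read 1185 in the early, 2505 in the intermediate and 1791 in the late pool, against 1107 in the sham and 1018 in the untreated pool. The intermediate pool was 2.26-fold above sham and 2.46-fold above untreated. Against sham it was 1.97-fold with values as deposited, 1.996-fold with 75th percentile scaling and 1.92-fold after quantile normalization, so the call was lost under each of these scalings. Its order over the arrays was that of the brighter C3 probe set. C1r, the protease that activates C1s, read 2834, 3982 and 2122 in the early, intermediate and late pools, against 2277 in the sham and 2401 in the untreated pool, so its intermediate level was 1.75-fold and 1.66-fold the controls. C1qc, the C chain of C1q, ranged from 765 to 885 in the exposed pools, against 670 in the sham and 793 in the untreated pool, without passing on any. The mannose-binding lectin Mbl1 was dim, at 262 to 310 in the exposed pools against 260 in the sham and 196 in the untreated pool. Masp1, a lectin pathway protease, lay above the floor of 172.53 only in the early pool among the exposed, at 189, and in the sham pool, at 269.

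In the alternative pathway, Cfd, the protease factor D that cleaves factor B and is a product of adipocytes, was lower in the early and late pools. It read 423 in the early, 605 in the intermediate and 381 in the late pool, against 943 in the sham and 1271 in the untreated pool. The log2 differences from sham and untreated were -1.16 and -1.59 in the early pool, -0.64 and -1.07 in the intermediate pool and -1.31 and -1.74 in the late pool. Properdin, Cfp, which stabilises the alternative convertase, read 1060, 1282 and 1341 in the early, intermediate and late pools, against 895 in the sham and 1301 in the untreated pool, within 2-fold of both. Of 7 terminal components 2 were measured: C8b was under the floor on all arrays, and C9 was above it at 179 in the intermediate and 211 in the late pool, against 253 in the sham pool.

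Among the regulators, Cd55, the membrane protein that dissociates C3 convertases, was higher in the early pool. Its brighter probe set read 700 in the early, 184 in the intermediate and 198 in the late pool, against 198 in the sham and 241 in the untreated pool, 3.53-fold and 2.90-fold for the early pool. A second Cd55 probe set gave 1.43-fold and 1.23-fold there and so did not pass, and the call was lost with the floor at the 60th percentile. C4bpb, the beta chain of C4b-binding protein, was above the floor only in the intermediate pool, at 205, which is at least 1.19-fold above both controls. Cd59b, Clu, Cr1l and Serping1, which restrain membrane attack, the fluid-phase terminal complex, C3 convertases and C1r with C1s, passed on no array. Serping1, the C1 inhibitor, read 1896, 2304 and 2187 in the early, intermediate and late pools, against 1694 and 1804 in the sham and untreated pools. Of the receptors, C5ar1, which binds the chemoattractant C5a, read 1262, 1163 and 1421 in the same exposed pools, against 1178 and 732 in the sham and untreated pools. Its second probe set gave 960, 767 and 881, against 1082 and 926.

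**Figure D2:**
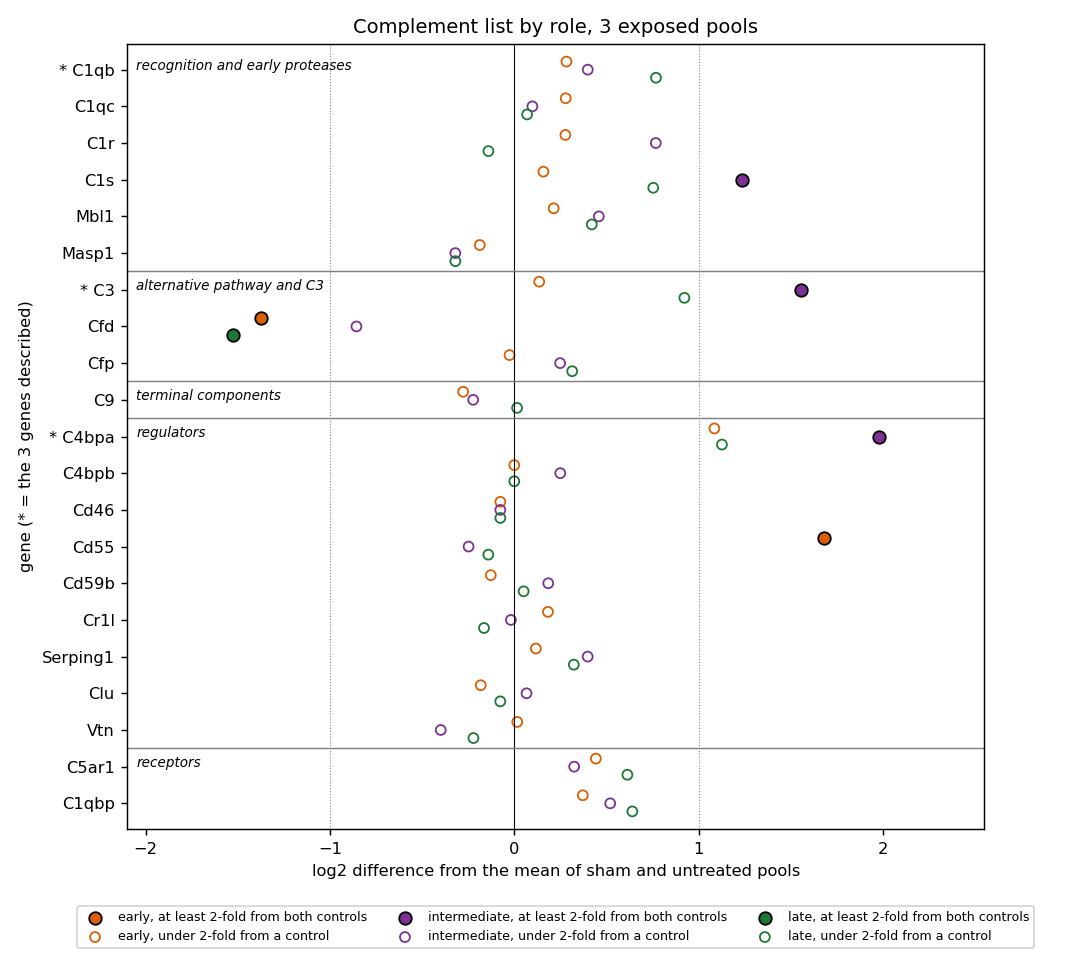
Log2 difference from the mean of the sham and untreated pools (horizontal axis) for the 21 complement genes above the floor, grouped by role, with 1 point per exposed pool; filled points are at least 2-fold from both controls, and dotted lines mark a log2 difference of 1. With median scaling, the filled points are C1s, C3 and C4bpa in the intermediate pool, Cd55 in the early pool, and Cfd, to the left, in the early and late pools.

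Averaged over phases, the 3 exposed pools were compared with the 2 unexposed pools by limma across all 3667 genes, with Benjamini-Hochberg adjustment and phase differences left in the residual. Since nothing marks the arrays as separate samples of 1 condition, its p-values reflect how these 5 pools scatter and nothing more. At an adjusted p of 0.05, 0 genes passed in either direction (0% of all genes), and at an unadjusted p of 0.05, 4.8% of genes were higher and 2.18% lower. Of the 18 complement genes apart from the members, 0 passed after adjustment and 2 had an unadjusted p under 0.05. These were Cfd, with a log2 difference of -1.25 ± 0.26 (SE; limma adjusted p = 0.61), below both controls in 3 of 3 exposed pools, and C1qbp, a mitochondrial matrix protein first found as a binder of C1q, with 0.51 ± 0.15 (SE; limma adjusted p = 0.66), above both in 3 of 3. C1s had a difference of 0.72 ± 0.33 (SE; limma adjusted p = 0.75). The differences of means of the members, given without a p, were 1.40 for C4bpa, 0.87 for C3 and 0.48 for C1qb, beside a median of 0.06 over all genes.

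Likeness of pattern was measured as the root mean square difference of log2 levels over the 5 arrays, each gene centred on its own mean, against 2782 other genes above the floor on all arrays. Each gene was taken on the probe set that stands for it. The neighbours of C3 and C1qb therefore hold for their brighter probe sets and not for their second ones, which differed in pattern. C3 was most like Rrbp1, a ribosome-binding protein of the endoplasmic reticulum (0.12), the nucleoside diphosphate kinase Nme1 (0.12) and C1s (0.14), where the median over all genes was 0.61. Rrbp1 read 1290, 2813 and 1938 in the early, intermediate and late pools, against 1166 and 847 in the sham and untreated pools. C4bpa had looser neighbours: the metalloproteinase inhibitor Timp1 (0.31), Rrbp1 (0.32) and the siderophore-binding lipocalin Lcn2 (0.36), with a median of 0.81 over all genes. Lcn2 read 20334 in the sham and 5976 in the untreated pool, and so was, like C4bpa, lowest without instillation. C1qb was most like the mitochondrial protein gene Chchd1 (0.07), the histone H2ax (0.07) and fibronectin, Fn1 (0.09), with a median of 0.34. The members were not each other's nearest genes: 149 genes were closer to C3 than C4bpa was, and 337 were closer than C1qb. Such counts differ with the gene they start from. From the side of C4bpa, C3 lay at 0.42, not far beyond Lcn2 (0.36), and C1qb at 0.64, with 176 genes closer than C1qb. The measure rests on 5 single arrays and carries no p.

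**Figure D3:**
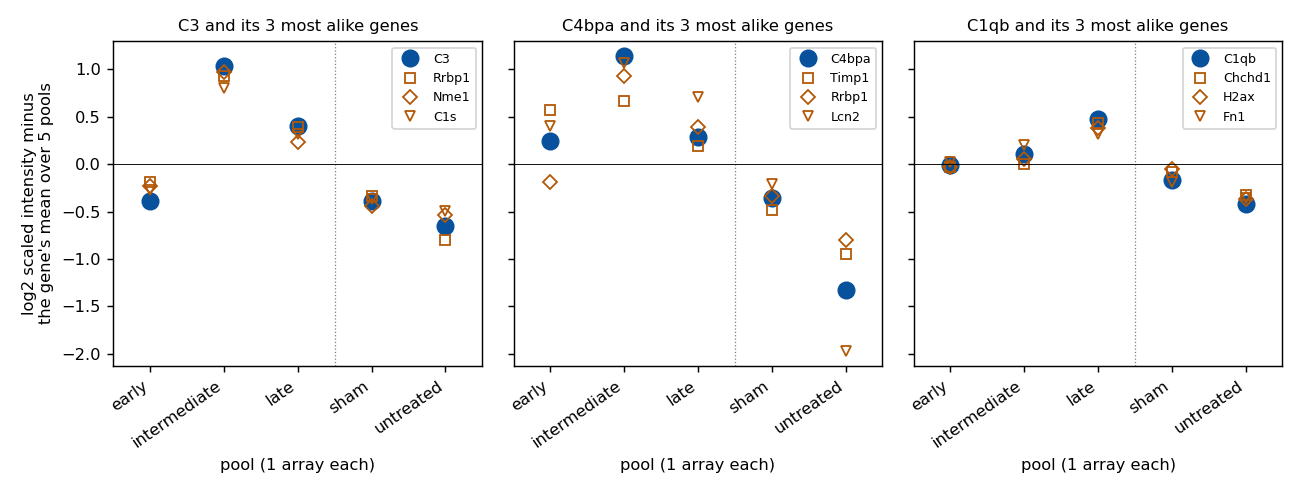
Log2 scaled intensity minus the gene's own mean over the 5 arrays (vertical axis) for C3, C4bpa and C1qb (filled circles) and the 3 genes most like each (open symbols), with 1 point per array. Each gene is shown on the probe set that stands for it. The C3 and C1qb neighbours lie close to the member on every array, while those of C4bpa spread more widely, most of all in the untreated pool.

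Markers of cells that lung RNA can hold were measured on the same arrays. Of 8 alveolar type 2 markers 4 were measured, the surfactant genes Sftpa1, Sftpb, Sftpc and Sftpd, with a summed level of 135771, 180083 and 176683 in the early, intermediate and late pools, against 148888 in the sham and 135666 in the untreated pool. Of 13 macrophage markers 7 were measured, summing to 54164, 74428 and 75626 in the exposed pools in the same order, against 62148 and 55916. Lyz2 made up most of that sum, and Csf1r was under the floor on every array. Cd14 was called higher in the early pool, at 1455 against 680.5 in the sham and 599.9 in the untreated pool. Fcgr2b was called higher in the late pool, at 1417.5 against 366.6 and 563.6. Lyz2, Ctss, Aif1 and Cd4 were called on no array. Of 9 neutrophil markers 4 were measured, summing to 6030, 5502 and 3631, against 2662 and 2001, with Cxcr2 under the floor throughout. Of 11 hepatocyte and plasma protein genes 10 were measured, summing to 13598, 8760 and 8622, against 8339 and 7400. Fgg carried most of this sum, at 9539, 5011 and 3824, against 4297 and 3069, and was called higher in the early pool. Serpina1 and Hpx were above the floor on all arrays, at 2319 to 3041 and 348 to 359 in the exposed pools. Apob and Apoa1 were under the floor in the intermediate pool only. They read 398 and 260 in the early and 445 and 302 in the late pool, against 233 and 216 in the sham and 327 and 238 in the untreated pool. Ttr was above the floor in the early, late and untreated pools, at 224, 242 and 249. Alb and Fga were above it in the early pool alone, at 195 and 194, Ahsg in the sham pool alone, at 221, and Fgb in none.

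In the intermediate pool the median log2 difference from the controls' mean was 0.42 for alveolar type 2, 0.22 for macrophage, 1.26 for neutrophil, -0.11 for hepatocyte and plasma protein, -0.19 for club cell, -0.28 for endothelial and -0.38 for lymphocyte markers. C3 and C4bpa, at 1.55 and 1.98, were above each of these medians. C1qb, at 0.40, was not above that of the alveolar type 2 or neutrophil markers. The members were picked for their values on these arrays, so this order was set in advance and is no support. The neutrophil median rests on 3 genes, of which Padi4 read 1432 in the intermediate pool, against 413 in the sham and 458 in the untreated pool. The pool where C3 and C4bpa were highest had the lowest 5′ to 3′ ratios of control transcripts, 9.07% for beta-actin and 23.6% for GAPDH. The sham pool had the next lowest, 14.7% and 25.5%, with C3 and C4bpa at 4893 and 1104. The early pool had the highest ratios. There the C3 probe sets differed most in their log2 difference from untreated, 1.14 for the second and 0.27 for the one that stands for the gene. In level they were closer there, at 5539 and 4908, than in the intermediate pool, at 6955 and 13125. The part of cell makeup or RNA quality in these levels was not tested.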

How the data were processed

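Lung RNA pools were measured on 5 one-colour oligonucleotide arrays. The deposited table gives the intensity of 8799 probe sets on a linear scale. Scaling between arrays by the authors is inferred from 2% trimmed means of 1001.38 to 1001.63; the sources used here do not give the algorithm. From these, 59 control probe sets were left out, arrays were scaled to a common median (factors 0.931 to 1.07), floored at the 40th percentile (172.53) and taken to log2. Where a gene had several probe sets, that of highest average log2 level was taken; 3667 of 4736 named genes exceeded the floor somewhere. Names came from a platform annotation (7006 probe sets with 1 symbol, 308 with several, 1426 not listed). A fold against the floor is a lower bound. The comparison of exposed with unexposed arrays used limma 3.58.1 in R 4.3.3; how many animals stand behind an instilled pool is not stated. Named genes were the members, list genes that passed, up to 4 others per role by mean level, and the 3 most alike genes per member. Members and lists were chosen with earlier results of these data known. Scaling, floor, probe set, fold and left-out arrays were varied. Each group's single array limits the precision.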

Additional observations from a re-analysis of the deposited data

Results flagged for a closer look

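Cd55 was at least 2-fold above both controls in the early pool, with a log2 difference of 1.68 from their mean, and below their mean in the intermediate pool (-0.25) and the late pool (-0.14). The late pool was level with sham, at 198 in both, and lower than untreated, at 241. The difference between phases was not tested. Its second probe set gave 1.43-fold and 1.23-fold over sham and untreated in the early pool.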

How the results depend on the processing

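C3 and C4bpa were called higher in the intermediate pool under all 6 alternatives of scaling, floor and probe set. Their log2 differences were 1.33 to 1.55 and 1.80 to 1.98. Changing the floor left the values of both genes as they were, and C4bpa has a single probe set, so such settings could not change these calls. With either control pool left out the differences were 1.42 to 1.69 and 1.49 to 2.46. A gene past 2-fold against both controls also passes against each alone, so those calls were fixed in advance. C1qb was called under none of the 6 alternatives, and with neither control left out. C3 in the early pool was 0.14 and turned to -0.0155 with quantile normalization. With the sham pool left out, C3 in the late pool (0.79 to 1.05 over both left-out controls) and C4bpa in the early (0.60 to 1.57) and late pools (0.64 to 1.61) passed. Leaving out a control gave 1 to 2 higher list genes in the early pool, 0 to 1 lower in the intermediate pool and 0 to 2 higher in the late pool. No count over all genes is set beside these, so they are not read as a trait of the list. Higher list genes in the intermediate pool numbered 3, against 2 under each of the 3 other scalings, where C1s no longer passed. They numbered 4 with the floor at the 20th percentile, where C4bpb was added, and 4 at 1.5-fold, where C1r was added. Over all genes, 32 of 3667 were higher there, against 21 of 3684 as deposited, 25 of 3687 with 75th percentile scaling and 23 of 3659 after quantile normalization. With the floor at the 20th percentile 103 of 4475 were higher, and at 1.5-fold 4.75%. The number of higher list genes in the early pool was 0 with the floor at the 60th percentile and 0 with the median over probe sets. Over all genes, 93 of 3667 were higher there in the main setting, against 53 of 2549 and 88 of 3567. At 1.5-fold, list genes numbered 2 higher in the early pool (6.84% of all genes), 1 lower in the intermediate pool (1.58%) and 5 higher in the late pool (3.05%), the last being C3, C4bpa, C1qb, C1s and C1qbp. C1qb passed there on its brighter probe set only, the second being 1.18-fold and 1.17-fold over sham and untreated. In limma, 0 list genes passed under every alternative, with each array left out in turn too; without 1 control the other is assumed to vary like the exposed pools. The median of all genes in the intermediate pool was 0.09, and -0.04 with values as deposited, and higher genes made up 80% of its calls, against 60% as deposited, 65.8% with 75th percentile scaling, 67.6% after quantile normalization, 63.2% with the floor at the 20th percentile and 100% with it at the 60th. In the early pool this share was 89.4%, against 76.9% with 75th percentile scaling and 68.9% with the lower floor, and in the late pool 36.7%, against 25% as deposited and 49.7% with the lower floor. A window of 300 bases gave the same motif matches. No paired analysis was possible because each group has 1 array and the labels give no replicate numbers. The causes were not tested.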

Other observations

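Of the measured complement genes, the C3a receptor C3ar1, the integrin chain Itgam of complement receptor 3, the terminal component C8b and the lectin Mbl2 were under the floor on all 5 arrays. C3ar1 read 8.6, 142 and 31.3 in the early, intermediate and late pools, against 133 in the sham and 69.7 in the untreated pool, and no fold is given for it. Cd46, a membrane cofactor for factor I, was above the floor in the untreated pool alone, at 192.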
